A study of Mus musculus with 3 samples.

Results

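The genes described here are 8 regulators of the primitive streak and of the mesendoderm that forms from it: the secreted ligands Wnt3 and Fgf8, the T-box factors T and Eomes, the basic helix-loop-helix factor Mesp1, and the homeobox factors Mixl1, Gsc and Evx1. T is brachyury, also named Tbxt. They were taken as a fixed list of names, chosen with earlier results of these data known. All probes whose RefSeq accession maps to them were read, which gave 11 probes. The array held 20274 named genes in all. RNA came from mouse embryonic stem cells labelled as male, which were kept on mitomycin C-treated embryonic fibroblast feeders with fetal calf serum and leukemia inhibitory factor. Each of the 3 groups was measured on 1 array. The groups were wildtype cells, Pcgf6KO cells made with Cas9, and Pcgf6KO+ Pcgf6_flag cells, whose genotype label combines the knockout with Pcgf6_flag and which were made by lentiviral infection. The sources used here do not say whether an edited line is a single clone.

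In the gastrulating mouse embryo the primitive streak is the site where epiblast cells leave the epithelium and become mesoderm and definitive endoderm. WNT3 and NODAL signals induce T, Eomes and Mixl1 there, T keeps WNT and FGF signalling active in the streak, and Mesp1 marks the first cardiac and cranial mesoderm. Stem cells kept with leukemia inhibitory factor hold most of these genes at low levels, and a minor share of cells can express T. PCGF6 is the defining subunit of the Polycomb complex PRC1.6, whose partner MGA carries a T-box domain and, with MAX, an E-box-binding domain.

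With 1 array per group no test between groups was possible and no p-value is given. A level is log2 of the processed signal minus the 75th percentile of that array, so 0 is a bright probe and negative values are dimmer ones. A difference of 1 log2 unit is 2-fold, which was the fixed size for counting a gene as higher or lower. The error given with a difference is the SD expected from repeated spots of probes of similar level. It covers the array only and leaves out any variation between cultures. Levels of different probes are not compared, because probes differ in brightness for equal RNA.

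The wildtype and Pcgf6KO arrays lay on slide 1 and the third array alone on slide 2, so group and slide cannot be told apart for it. Between 60.7% and 66.0% of the probes were well above background, and the lowest such signal reached 52.7 for wildtype, 53.4 for Pcgf6KO and 103 for the third array. The Pcgf6 probe had levels of 1.87, 0.84 and 0.42 in that order. It was thus lower in Pcgf6KO, and not higher on the array labelled Pcgf6KO+ Pcgf6_flag, called the Flag-labelled array below. The sources used here do not place this probe relative to the edit or to the lentiviral copy, so directions drawn from the third array rest on its label. Of the PRC1.6 partners Mga, Max, E2f6 and L3mbtl2 none differed by 2-fold in any comparison. All 10 stem cell markers, among them Pou5f1, Nanog and Sox2, were well above background on every array and none differed by 2-fold. A source label also names muscle. Of 9 skeletal muscle markers, Myod1, Acta1, Myh3, Actn2 and Tnnt3 were well above background on every array, Myf6 in Pcgf6KO only, and Myog, Myf5 and Ckm on no array.

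The comparison of Pcgf6KO with wildtype asks which of these genes differ when Pcgf6 is edited. Wnt3 and T were higher in Pcgf6KO by 4.05-fold and 2.10-fold, and Mesp1 was higher by at least 2.18-fold. Gsc and Evx1 differed by less than 2-fold in opposite directions, Fgf8 hardly differed, the probes of Eomes disagreed in size, and Mixl1 was not well above background. On the Flag-labelled array Wnt3 and T were lower than in Pcgf6KO by 8.97-fold and 4.17-fold, and lower than in wildtype as well.

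Of the 8 genes, 6 were measured on all 3 arrays, which means well above background. In Pcgf6KO against wildtype 2 of these 6 were at least 2-fold higher and 0 lower, where 5.81% of all 14997 genes measured on both arrays were higher and 2.81% lower. With bounds included, 3 of the 7 members measured on at least 1 of these arrays were higher and 0 lower, beside 6.61% and 3.56% of all genes. A share over so few members rests on single genes, and the members were chosen with earlier results of these data known. The median difference of the 6 was 0.50, and -0.02 over all genes. On the Flag-labelled array against Pcgf6KO, 2 of 6 were lower and 0 higher, beside 8.37% lower and 5.4% higher of 14241 genes. With bounds it was 2 of 7 lower, beside 10% lower and 6.15% higher. Against wildtype 1 of 6 was lower and 0 higher on that array, beside 4.81% and 4.9% of 14193 genes, or 6.28% and 5.83% with bounds, and no member had a bound.

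**Figure D1:**
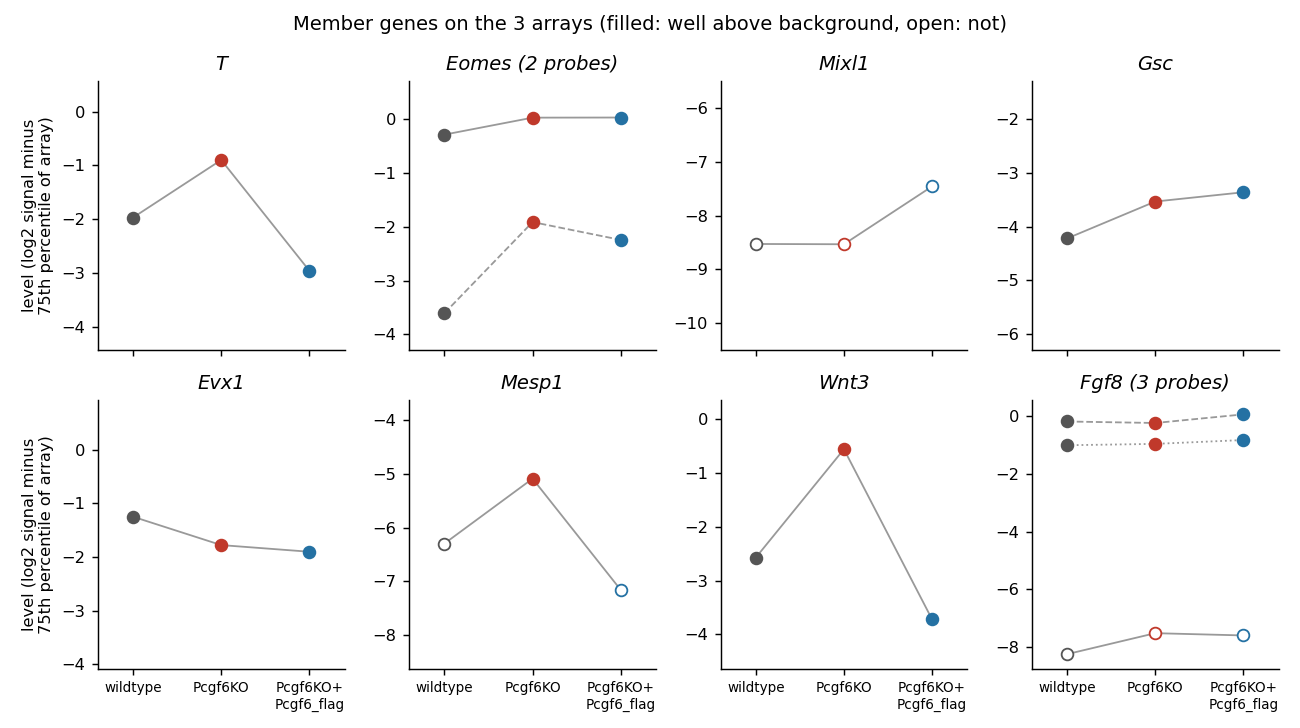
Levels of the 8 genes on the 3 arrays, 1 panel per gene; the vertical axis is log2 processed signal minus the 75th percentile of the array, a line joins the values of 1 probe, and open points were not well above background. T, Wnt3 and Mesp1 peak in Pcgf6KO, whereas Eomes and Gsc stay up on the Flag-labelled array.

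Wnt3 encodes the WNT ligand that is needed to form the streak, and among the measured probes of the 8 genes it gave the largest difference in both comparisons with Pcgf6KO. Its processed signal on its single probe, matched to NM_009521, read 659 for wildtype, 2924 for Pcgf6KO and 351 for the Flag-labelled array. The levels were -2.57, -0.55 and -3.72. Pcgf6KO was thus the high array, and the Flag-labelled array was the low one. The difference between Pcgf6KO and wildtype was 2.02 ± 0.10 (SD of repeated spots, 1 array each). Only 156 of 14997 genes had a larger one. From Pcgf6KO to the Flag-labelled array the difference was -3.17 ± 0.17, and 33 of 14241 genes fell further. The Flag-labelled array differed from wildtype by -1.15 ± 0.18, so it was 2.22-fold lower. This last difference was -0.91 when the deposited values were left unscaled.

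Fgf8 encodes a fibroblast growth factor that mesoderm cells need to migrate away from the streak. It was read by 3 probes matched to NM_010205. The brightest had signals of 3446 in wildtype, 3641 in Pcgf6KO and 4822 on the Flag-labelled array, and the next had 1948, 2205 and 2604 in the same order. The third, with signals of 12.9, 23.4 and 23.8, was not well above background on any array. On the 2 measured probes Pcgf6KO differed from wildtype by -0.05 ± 0.09 and 0.05 ± 0.09, so the arrays did not differ beyond the spot error. Against Pcgf6KO the Flag-labelled array lay higher by 0.30 and 0.13, and against wildtype by 0.25 and 0.18. The 2 ligands therefore did not share a pattern, since Fgf8 was close to level where Wnt3 spanned 3.17 log2 units.

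T encodes the T-box factor that marks the streak and the early mesoderm. Its single probe, matched to NM_009309, had signals of 999.7 in wildtype, 2301 in Pcgf6KO and 594 on the Flag-labelled array. The levels were -1.97, -0.90 and -2.96. The order of the arrays was the same as for Wnt3. Pcgf6KO was higher than wildtype by 1.07 ± 0.10, just past 2-fold, and 768 of 14997 genes had a larger difference. With the normexp background correction this difference was 0.98, just under 2-fold. The Flag-labelled array was lower than Pcgf6KO by -2.06 ± 0.13, and 292 of 14241 genes fell further. Against wildtype it differed by -0.99 ± 0.14, just under 2-fold, and by -1.11 with arrays scaled to their medians and -1.04 after quantile normalization.

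Eomes encodes the T-box factor that directs epiblast cells to definitive endoderm and cardiac mesoderm. It was read by 2 probes matched to the same accession, NM_010136, and they disagreed in size. The brighter probe had signals of 3216 in wildtype, 4386 in Pcgf6KO and 4729 on the Flag-labelled array. The dimmer probe had 321, 1140 and 975. Wildtype was the low array on both probes. On the brighter probe Pcgf6KO lay 0.32 ± 0.09 above wildtype, and on the dimmer probe 1.70 ± 0.13, or 3.24-fold. The Flag-labelled array lay above wildtype by 0.32 ± 0.09 and 1.36 ± 0.14. Between Pcgf6KO and the Flag-labelled array the probes differed by 0.00 ± 0.09 and -0.33 ± 0.12. Unlike T and Wnt3, Eomes was thus not below wildtype on the Flag-labelled array on either probe. Whether the probes read different transcripts of the gene was not tested. The dimmer probe was singled out after its values were seen. The gene's mean over probes was 1.01 for Pcgf6KO against wildtype, so its 2-fold call depends on the probe.

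Mesp1 encodes the basic helix-loop-helix factor of nascent mesoderm. Its probe, matched to NM_008588, had signals of 49.8 in wildtype, 126 in Pcgf6KO and 32.3 on the Flag-labelled array. It was well above background in Pcgf6KO only, where its level was -5.09. For such a gene the difference is a bound, taken against the higher of the dim array's lowest signal that was well above background and the signal of Mesp1 itself there. Mesp1 was at least 2.18-fold higher in Pcgf6KO than in wildtype, where its level was -6.30. The repeated-spot SD of this difference was 0.34. With normexp the bound was 0.51 log2 units, under 2-fold. The Flag-labelled array, with a level of -7.16, was at least 1.32-fold lower than Pcgf6KO, a bound that its higher background limits.

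The homeobox genes showed smaller differences. Mixl1, which acts in mesoderm and endoderm formation and was matched to NM_013729, was not well above background on any array, with signals of 10.6, 11.6 and 26.3, so no difference is given. Gsc, the organizer gene goosecoid (NM_010351), had signals of 210.3 in wildtype, 371 in Pcgf6KO and 449.9 on the Flag-labelled array. Its level was higher than wildtype by 0.69 ± 0.17 in Pcgf6KO and by 0.86 ± 0.19 on the Flag-labelled array, and the last 2 arrays differed by 0.17 ± 0.17. Its difference between the Flag-labelled array and wildtype was 1.1 in unscaled values. Wildtype was thus its low array, as it was for Eomes. Evx1, an even-skipped factor of the posterior streak (NM_007966), ran the other way. Its signals were 1647, 1252 and 1237, so that wildtype was the high array. The differences from wildtype were -0.53 ± 0.10 in Pcgf6KO and -0.65 ± 0.10 on the Flag-labelled array, and the last 2 arrays differed by -0.12 ± 0.10.

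**Figure D2:**
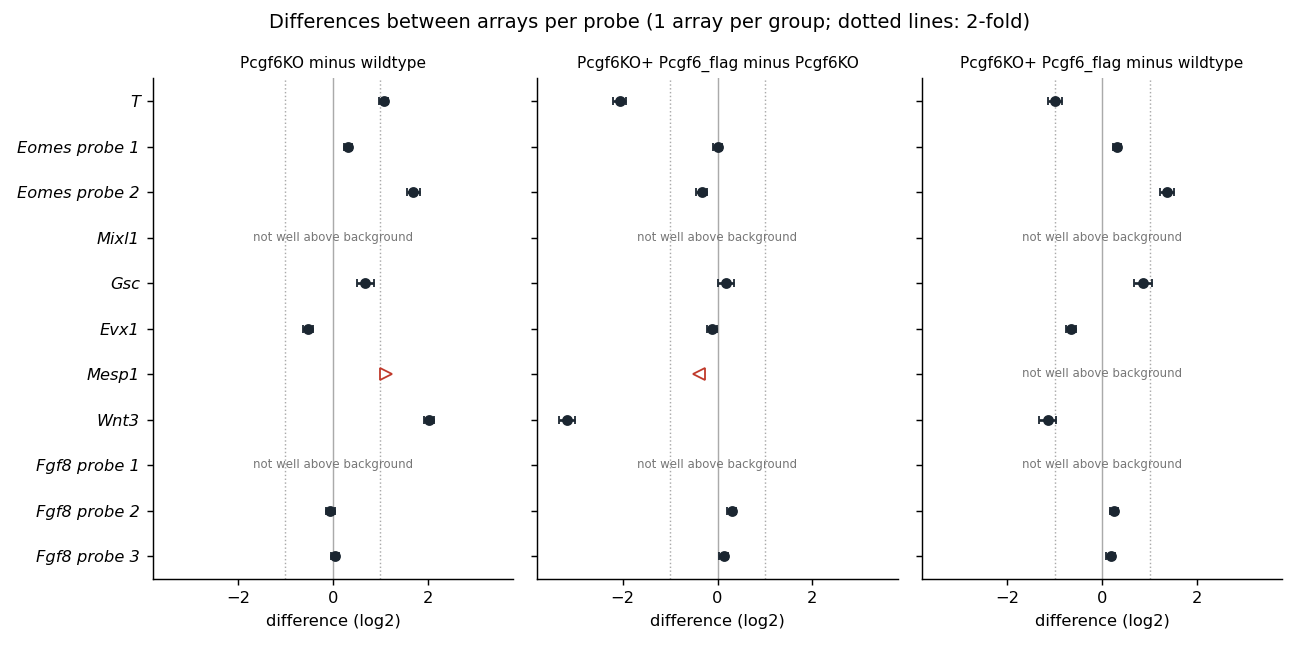
Differences per probe in the 3 comparisons, on a log2 axis; points are measured on both arrays with the SD of repeated spots as bars, open triangles are bounds pointing away from 0, and dotted lines mark 2-fold. Wnt3 and T stand to the right for Pcgf6KO against wildtype and to the left on the Flag-labelled array, and the 2 probes of Eomes stand apart from each other. Probes of Eomes and Fgf8 are numbered in the order of their identifiers.

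The members therefore fell into different shapes over the 3 arrays. Wnt3 and T were at least 2-fold higher in Pcgf6KO than on both other arrays, as were 3.34% of the 14152 genes measured on all 3. Eomes and Gsc were lowest in wildtype. Between the other arrays Gsc and the brighter Eomes probe were about level, and the dimmer Eomes probe differed by -0.33. Evx1 was highest in wildtype, and Fgf8 differed by at most 0.30 on its measured probes. Each comparison uses an array that another also uses, so these shapes are not independent evidence. Likeness over the 3 arrays was measured as the Euclidean distance between levels after subtracting each gene's mean, over 14151 other genes. The genes closest to T were Prrg3 at 0.03, Cxcl5 at 0.06 and Cd34 at 0.06 log2 units. Those closest to Wnt3 were Smpdl3a at 0.07, Gatm at 0.11 and Galnt14 at 0.12. T was the gene in place 169 in the order of likeness to Wnt3, at 0.84. With 3 arrays many genes share a shape.

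**Figure D3:**
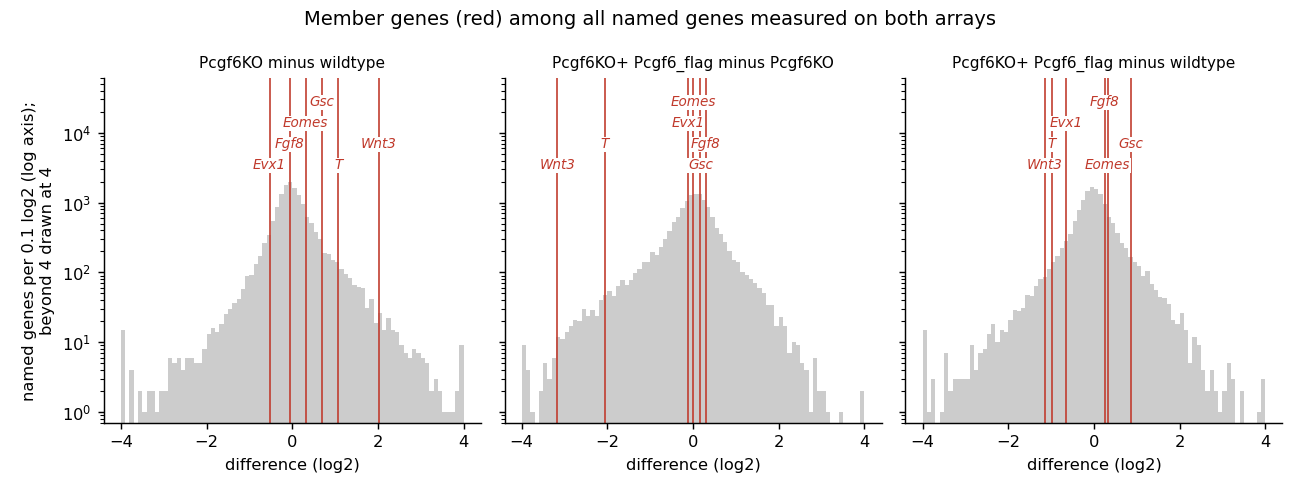
Histograms of the difference (log2) over all named genes measured on both arrays of each comparison, with a log vertical axis; genes beyond 4 in size are drawn at 4, and red lines mark the 6 measured members. Wnt3 lies at 2.02 in the right tail for Pcgf6KO against wildtype and at -3.17 in the left tail for the Flag-labelled array against Pcgf6KO, whereas most other members lie within 1 of 0.

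The promoter sequences of the 3 genes that were highest in Pcgf6KO are shown because each of these genes had its highest level there. The values of Mesp1 on the other arrays were not well above background and have no order. They are the 250 bases before the annotated start site, from RefSeq on GRCm38.p6, a later build than the mm9 design of the array. Capitals mark matches to 4 motifs searched on both strands: the E-box CACGTG, the E2F motif TTCCCGC, the T-box motif TCACACCT and the TCF/LEF motif CTTTGAT.
T, chr17:8434173-8434422, plus strand: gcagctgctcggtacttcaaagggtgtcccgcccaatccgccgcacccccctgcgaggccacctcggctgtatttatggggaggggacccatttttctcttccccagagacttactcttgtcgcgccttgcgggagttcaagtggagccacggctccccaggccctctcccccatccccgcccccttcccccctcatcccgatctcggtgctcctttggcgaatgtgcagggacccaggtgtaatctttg
Wnt3, chr11:103773925-103774174, plus strand: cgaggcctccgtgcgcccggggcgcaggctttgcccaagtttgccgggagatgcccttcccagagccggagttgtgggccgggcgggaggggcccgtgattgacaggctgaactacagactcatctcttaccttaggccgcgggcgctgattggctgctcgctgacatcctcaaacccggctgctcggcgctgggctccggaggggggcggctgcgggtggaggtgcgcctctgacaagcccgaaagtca
Mesp1, chr7:79793591-79793840, minus strand: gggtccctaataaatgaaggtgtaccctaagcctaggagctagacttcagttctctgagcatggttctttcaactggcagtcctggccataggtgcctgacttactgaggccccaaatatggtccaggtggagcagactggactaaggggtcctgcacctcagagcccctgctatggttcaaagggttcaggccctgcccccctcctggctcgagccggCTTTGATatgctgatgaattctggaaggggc
Mesp1, 30 bases across the start site, chr7:79793567-79793596, minus strand: aggggcccgctTCACACCTagggctcagga

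The table held promoters of 6 of the 8 genes (T, Eomes, Gsc, Evx1, Mesp1 and Wnt3). In the window of 300 bases, which adds 50 bases after the start site, only Mesp1 had a match to a motif. Its TCF/LEF match CTTTGAT lay from -31 to -25 and its T-box match TCACACCT from 6 to 13 relative to the start site, and they did not overlap. The TCF/LEF motif was in 3.73% of all 32851 promoters, the T-box motif in 1.28%, the E-box in 7.15% and the E2F motif in 4.60%, on either strand. A match is a description of letters and not a bound site. The windows also differed in CpG content. Wnt3 held 24 CpG dinucleotides and T 17, against a median of 7 over all promoters, whereas Mesp1 held 4. The observed over expected CpG ratio was 0.74 for Wnt3, 0.61 for T and 0.17 for Mesp1, with 0.93 for Gsc, 0.71 for Evx1, 0.61 for Eomes and a median of 0.38 over all promoters. The genes that were highest in Pcgf6KO thus covered both CpG-rich and CpG-poor windows.

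The wider pathway was read from a list of 88 genes of the NODAL, WNT, FGF and BMP pathways and of early streak derivatives, of which 87 were on the array. Taken as a whole the list did not follow Wnt3 and T in Pcgf6KO. Against wildtype 5 of 81 genes measured on both arrays were higher and 3 lower, shares near the 5.81% and 2.81% of all genes. The median with bounds was -0.08, and -0.02 over all genes, and without scaling these were 0.06 and, over genes measured on both arrays, 0.11. The BMP ligand genes Bmp2 and Bmp7 were higher by 1.69 and 1.34, and the BMP antagonist gene Chrdl1 by 2.14. The wildtype signal of Chrdl1, 64.9, was near the lowest that was well above background there, 52.7. The primed-epiblast factor gene Fgf5 was higher by 1.85, and Hand1, of extraembryonic and cardiac mesoderm, by 1.48. The mesoderm homeobox gene Meox1 was lower by -1.58, the NODAL co-receptor gene Cfc1 by -1.36 and the WNT effector Lef1 by -1.05. In the NODAL group 0 of 16 measured genes were higher and 1, Cfc1, was lower, which for so few genes is near the shares of all genes. Nodal itself differed by -0.62.

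In the WNT group the ligand Wnt8a had levels of -1.96 in wildtype, -1.15 in Pcgf6KO and -3.14 on the Flag-labelled array. Sp5, a direct target of WNT signalling, had -0.23, 0.71 and -1.15, and Axin2, the feedback inhibitor and common reporter of the pathway, had -2.77, -1.98 and -3.34. Each of these had the order of arrays seen for Wnt3 and T, with differences from wildtype of 0.81, 0.94 and 0.80 in Pcgf6KO, under 2-fold. On the Flag-labelled array they lay below Pcgf6KO by -2.0, -1.86 and -1.36. Wls and Rspo3, described below, also had this order. So did Dkk1, whose signal on the Flag-labelled array was not well above background. Wnt3a was well above background in Pcgf6KO only, with signals of 49.1, 112 and 88.8 on the 3 arrays. Pcgf6KO was at least 1.93-fold above wildtype and at least 1.17-fold above the Flag-labelled array, whose lowest signal well above background was 103. The order was not common to the whole group. In Pcgf6KO 0 of 18 measured WNT genes were at least 2-fold higher than wildtype and 1 was lower, beside 5.81% and 2.81% of all genes. Their median difference was -0.03, and -0.02 over all genes. The ligands Wnt5a and Wnt11 had their lowest levels in Pcgf6KO, with differences from wildtype of -0.995 and -0.63. Lef1 was lower than wildtype on both other arrays, and Notum, a WNT target that inactivates WNT ligands, had its lowest level, -0.31, in Pcgf6KO and its highest, 1.62, on the Flag-labelled array. Ctnnb1, which encodes beta-catenin, differed by no more than 0.15 in size in any comparison. Axin2, Nodal, Ctnnb1, Dkk1, Wnt3a, Wnt5a and Wnt11 were named after their values were seen.

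On the Flag-labelled array against Pcgf6KO, 8 of 73 pathway genes were higher and 12 lower, and another 5 were lower as bounds. Over all genes 5.4% were higher and 8.37% lower, or 10% lower with bounds. Wls, which exports WNT proteins from the cell, was lower by -3.74, the caudal factor gene Cdx2 by -2.82, Bmp2 by -2.59 and the WNT potentiator Rspo3 by -2.31. Cdx4, a posterior mesoderm factor, was at least 5.90-fold lower, Apln at least 3.71-fold and Chrdl1 at least 3.26-fold. Cfc1 was higher by 2.0, Notum by 1.93, Lhx1, of the anterior streak, by 1.41, the haemangioblast receptor gene Kdr by 1.41, Nkx1-2 by 1.30 and Fgf17 by 1.19. The median with bounds was -0.10, and 0.0008 over all genes. Over the genes measured on both arrays alone it was -0.01, and 0.03 over all such genes. Mesp2, the neighbour and paralogue of Mesp1, had levels of -2.51 in wildtype, -1.93 in Pcgf6KO and -3.65 on the Flag-labelled array, and it was named after its values were seen.

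Against wildtype the Flag-labelled array had 4 of 73 pathway genes higher and 10 lower, and another 6 were lower as bounds. Over all genes 4.9% were higher and 4.81% lower, or 6.28% lower with bounds. Wls was lower by -3.44, Cdx2 by -2.31, Rspo3 by -2.03, Meox1 by -1.90, the activin antagonist gene Fst by -1.89 and Snai2 by -1.65. Cdx4 was at least 4.04-fold lower, Foxc1 at least 3.67-fold and Foxa2, of definitive endoderm, at least 3.29-fold. Lhx1 was higher by 1.85, Kdr by 1.23, Fgf5 by 1.12 and Tbx6, of presomitic mesoderm, by 1.01. The median with bounds was -0.16, and -0.03 over all genes. Without scaling the list median was 0.08, where the median of all genes measured on both arrays was 0.22.

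**Figure D4:**
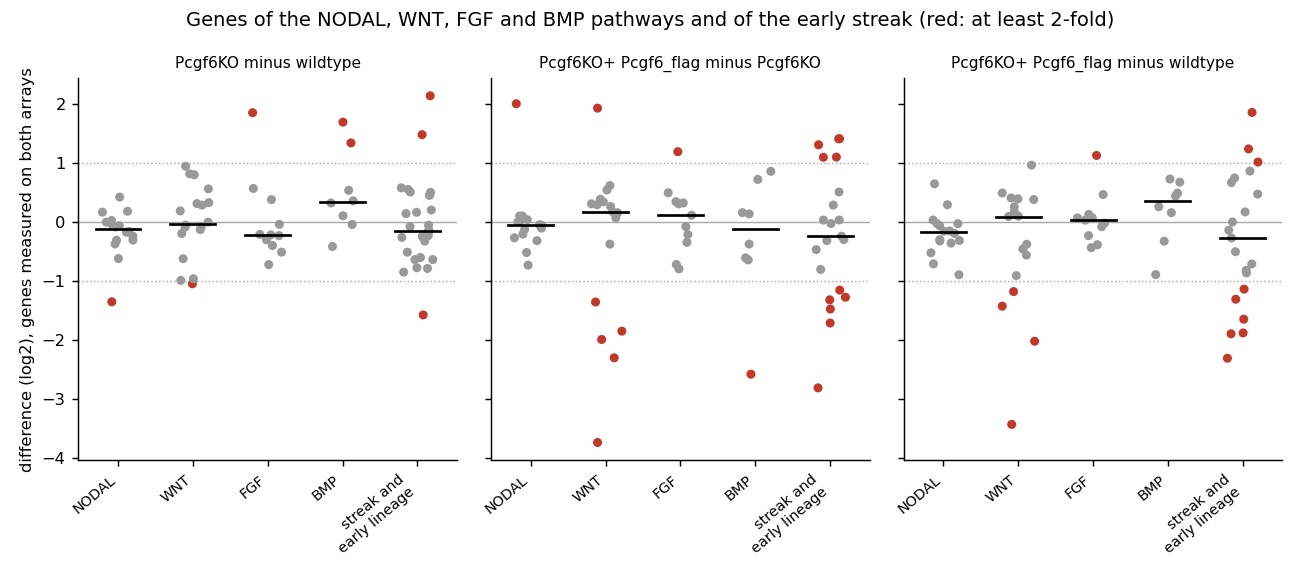
Differences (log2) of pathway genes measured on both arrays, 1 point per gene and grouped by pathway, with the group median as a black bar and genes at least 2-fold apart in red. Most groups straddle 0, with 5 red points above and 3 below for Pcgf6KO against wildtype, and 8 above and 12 below for the Flag-labelled array against Pcgf6KO.

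Markers of other cells moved between the same arrays. The 16 fibroblast markers, which cover the feeders, had a summed signal of 61.9 in wildtype, 26.8 in Pcgf6KO and 12.8 on the Flag-labelled array, in multiples of the 75th percentile. Their median level was 0.70, -1.27 and -3.39 in the same order. Bright genes weigh on the sum, such as Tagln, which differed from wildtype by -0.18 in Pcgf6KO. In Pcgf6KO 9 of 13 measured fibroblast markers were at least 2-fold lower than wildtype and 0 higher, beside 2.81% and 5.81% of all genes. On the Flag-labelled array 7 of 10 were lower than in Pcgf6KO, beside 8.37% of all genes. Lum was not well above background on any array. Wnt3 and T were higher in Pcgf6KO than in wildtype, and lower on the Flag-labelled array than in Pcgf6KO. The part of the feeders in these results was not tested, and in mixed RNA fewer cells of a type and less RNA per cell cannot be told apart.

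The 8 trophoblast markers, among them Cdx2 and Hand1 of the pathway list, had summed signals of 20.7, 32.4 and 20.1 on the 3 arrays. Pcgf6KO had the highest sum, as it also did for the endoderm, neural ectoderm and muscle lists. Bright genes weigh on the trophoblast sum, such as Krt8 and Krt18, which differed from wildtype by 1.13 and 0.54 in Pcgf6KO. The median level of the list was 0.97, 1.19 and 0.11 in the same order. In Pcgf6KO 2 of 7 measured trophoblast markers were at least 2-fold higher than wildtype and 0 lower, beside 5.81% and 2.81% of all genes. On the Flag-labelled array 4 of 7 were lower than in Pcgf6KO, beside 8.37% of all genes. The 7 endoderm markers had 1.03, 1.16 and 0.45. In Pcgf6KO Afp and Dab2 were higher than wildtype by 2.72 and 1.27, while the other 5 had negative differences under 2-fold. Sox17, Foxa2 and Afp were not well above background on the Flag-labelled array, where the lowest such signal was 103. Afp had a signal of 86.8 there and of 73.9 in wildtype. That wildtype signal counted as well above background, where the lowest such signal was 52.7. The 5 neural ectoderm markers had 5.39, 5.93 and 3.84, with Neurog2 not well above background on any array. That sum is carried by bright genes such as Nes, which differed by 0.29 in Pcgf6KO, whereas Sox1 was lower by -2.27 and the median level of the list went from -1.37 to -2.21. The 9 muscle markers had 5.33, 6.88 and 4.78. The stem cell markers had 140.8, 126 and 142. The part of these cells in the differences of the 8 genes was not tested.

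**Figure D5:**
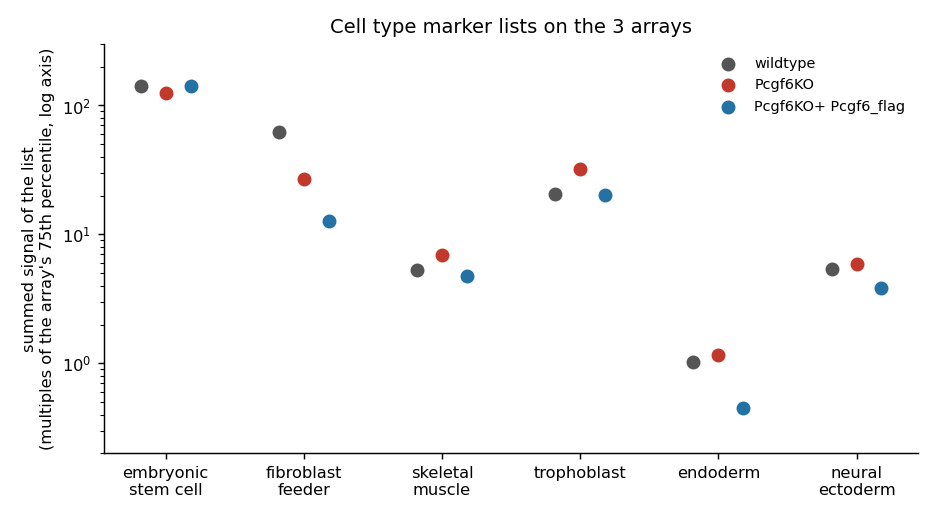
Summed signal of 6 marker lists on the 3 arrays, in multiples of the 75th percentile of each array on a log axis, with 1 point per array. The fibroblast list falls from 61.9 in wildtype to 12.8 on the Flag-labelled array, and the stem cell list stays between 126 and 142. The trophoblast list is highest in Pcgf6KO at 32.4, as are the endoderm, neural ectoderm and muscle lists.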

How the data were processed

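Per the file headers, the deposited scanner files hold linear spot intensity from Agilent Feature Extraction, version 11.5.1.1 in the headers and 10.7 in the submitters' processing notes. The processed intensity is background-subtracted. The deposited value table held the same signal for 55249 of 55249 probes with a single spot, within a relative tolerance of 1e-06, so it is linear and unscaled. Its column medians were 243, 273 and 313, and it holds no ratio.

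Control spots and outlier spots were left out, 0 spots were saturated, and the log2 values of repeated spots were averaged. The RefSeq table (GRCm38.p6) named 26762 of 55681 probes by accession. The array design is annotated on mm9. Each gene was represented by the brightest of its probes well above background on at least 1 array. Each member probe had 1 spot per array. The spot SD came from repeated probes within 1 log2 unit.

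The members and lists were chosen with earlier results of these data known. Named genes were all members, up to 6 pathway genes per comparison and direction past 2-fold, the 3 largest bounds, 5 PRC1.6 genes and the 3 genes most like a member. Alternatives were scaling to the median or to probes measured on all arrays, quantile normalization, normexp in limma 3.58.1 (offset 50, on the median spot signal because the files carry no mean), the deposited table scaled or not, no dim filter, the mean over probes, outliers kept, and 1.5-fold and 3-fold rules. Python 3.11.15, numpy 2.4.6, pandas 2.3.3, matplotlib 3.10.9 and R 4.3.3 were used. The number of arrays limits the precision.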

Additional observations from a re-analysis of the deposited data

How the results depend on the processing

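No paired analysis was possible because each group has 1 array. Wnt3 stayed past 2-fold in all 10 alternatives for Pcgf6KO against wildtype (1.90 to 2.15) and for the Flag-labelled array against Pcgf6KO (-3.25 to -2.99), and T for the latter (-2.15 to -1.87). Members at least 2-fold higher in Pcgf6KO than wildtype numbered 2, or 3 with bounds. With normexp, where T and Mesp1 fell short, and at 3-fold either count was 1. With the mean over probes, the dimmest probe or 1.5-fold they were 3 and 4, and without the dim filter 3 and 3. On the Flag-labelled array against Pcgf6KO, 0 were higher, and 1 (Mixl1, below background) without the dim filter. Against wildtype 0 were higher, and 1 in unscaled values, without the filter, at 1.5-fold, and with each gene's dimmest measured probe, a choice added after the data were seen. There 1 was lower, 2 with median or quantile scaling, 3 at 1.5-fold, and 0 in unscaled values or at 3-fold. The causes were not tested.

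Pathway genes higher in Pcgf6KO than wildtype numbered 5, then 8 (9 with bounds) at 1.5-fold and 3 at 3-fold. Lower ones numbered 3, then 5 with median scaling, 14 at 1.5-fold and 0 at 3-fold. On the Flag-labelled array against Pcgf6KO, 8 were higher and 2 at 3-fold. There 12 were lower (17 with bounds), 20 without the dim filter, and 7 (11 with bounds) at 3-fold. Against wildtype 4 were higher, 2 with median scaling, normexp, the mean over probes or the dimmest probe, 11 at 1.5-fold and 1 at 3-fold. There 10 were lower (16 with bounds), 18 without the filter, 17 at 1.5-fold and 6 (10 with bounds) at 3-fold. The list median for that comparison was -0.16, and 0.078 unscaled. Signals near background limit Mesp1 and Mixl1.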
